A study of Mus musculus with 32 samples.

Results

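The G protein-coupled receptors that set insulin secretion were examined as a group of 10 genes. They are Glp1r, Gipr, Gcgr, Gpr119, Oxtr, Ffar1, Chrm3, Casr, Adra2a and Sstr3, of 21945 genes in the RNA count table and 21927 in the ribosome-protected footprint (RPF) count table. The members were listed by name and matched through their Ensembl gene identifiers. Oxtr was chosen by its increase in RPFs, so its values at the 2 glucose concentrations are a description, carry no test and stay out of every count of calls. The cells were MIN6, a mouse insulinoma line of wild-type genotype that makes insulin and is used as a model of β cells. Cultures were kept for 24 hours in medium with 25 mM glucose (8 cultures) or 5.5 mM glucose (8 cultures), and all were treated with cycloheximide, which holds ribosomes on mRNA, before lysis. Each culture gave a polyA RNA library and an RPF library, 32 libraries in all, made in 2 batches with 4 cultures of each glucose concentration per batch. Replicates 1 to 4 formed the first batch and replicates 5 to 8 the second. The methods state that the line was routinely grown in 25 mM glucose, so the 5.5 mM cultures are the ones moved to another concentration. The labels call the replicates biological and the study describes the 8 samples of each glucose concentration as independent, so p-values measure the spread between cultures of 1 line.

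Receptors of this group pass signals from hormones, nutrients and nerve endings to the β cell. Those coupled to Gs raise cAMP and those coupled to Gq release calcium through phospholipase C, and both amplify the insulin release that glucose starts. Receptors coupled to Gi lower cAMP and restrain release.

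Some libraries stood apart from the rest. The 5 shallowest RNA libraries, all at 5.5 mM (replicates 2, 4, 6, 7 and 8), held 3014785 to 6907849 counts, of which Ins1 and Ins2 together took 0.159% to 1.09%. The other 11 RNA libraries held 13795978 to 33623502 counts, with an insulin share of 3.98% to 8.08%. RPF libraries held 363569 to 3283379 counts at 25 mM and 392529 to 7012999 at 5.5 mM. The RPF library labelled 25 mM replicate 8 was, of the 8 libraries at 25 mM, the one nearest to the 5.5 mM mean for 1354 of the 2689 genes called in RPFs (50.4%), against 71 to 274 genes for each other library. Results are therefore given with and without these 6 libraries. The RPF library was set apart by genes already called between the groups. Leaving it out tends to widen RPF differences and adds no separate support to a call. Except for counts pooled over libraries, levels are CPM, counts scaled to an equal effective library size. That size is the library total times its TMM factor (a trimmed mean of ratios between libraries). These factors were 0.4292 to 1.493 in RNA and 0.942 to 1.054 in RPFs, so RNA levels depend on them far more. All 12 β cell markers were detected, and their RPFs summed to between 92780 and 153000 CPM at 25 mM, against 117100 to 157000 CPM at 5.5 mM. Most of this sum was Ins2, with means of 89550 CPM at 25 mM and 95620 CPM at 5.5 mM. Of the 12 markers, 4 rose and 2 fell in RPFs at an adjusted p under 0.1, beside 15.5% and 15.4% of all genes tested. The 8 exocrine and duct markers summed to 975.2 to 1494 CPM of RPFs at 25 mM, against 805.9 to 1093 CPM at 5.5 mM. Of these, Cpa1, Pnlip and Sox9 had no RPF count in any library, and the duct keratins Krt7 (log2 fold change 0.26, adjusted p = 0.0554) and Krt19 (0.36, adjusted p = 0.0654), which were the members tested, rose in RPFs at 25 mM. Their part in the receptor results was not tested. Among α cell markers, Gcg, the glucagon gene, had RPFs of 132.6 to 442 CPM at 25 mM, against 72.88 to 203.6 CPM at 5.5 mM.

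Sequence upstream of the start of 9 of the 10 genes was available from RefSeq (build GRCm38.p6), with 2 starts for Sstr3. It is shown for Oxtr, the member with the largest RPF difference, for Adra2a and the second Sstr3 start, which hold the same E-box letters as Oxtr, and for Glp1r, whose RPFs fell. Each line gives positions -100 to -1 from the start, 5′ to 3′ on the strand of the gene, with the E-box CACGTG in capitals.
Oxtr (chr6:112489826-112489925, minus strand): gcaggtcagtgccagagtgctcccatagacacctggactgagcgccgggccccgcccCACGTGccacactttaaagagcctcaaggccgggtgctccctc
Adra2a (chr19:54045159-54045258, plus strand): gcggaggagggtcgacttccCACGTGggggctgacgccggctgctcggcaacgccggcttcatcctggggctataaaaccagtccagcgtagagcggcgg
Sstr3 (chr15:78544346-78544445, minus strand): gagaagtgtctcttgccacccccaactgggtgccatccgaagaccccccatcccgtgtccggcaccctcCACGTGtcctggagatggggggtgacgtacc
Glp1r (chr17:30901767-30901866, plus strand): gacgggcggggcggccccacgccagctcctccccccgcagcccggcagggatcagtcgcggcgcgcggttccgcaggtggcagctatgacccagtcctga
The search covered both strands from 250 bases before to 50 bases after each start. The E-box, whose letters read the same on both strands, began at position -43 in Oxtr, -80 in Adra2a and -31 in Sstr3. It was in 3 of the 10 promoters of the group and in 7.15% of all 32851 promoters. The cAMP response element TGACGTCA, the AP-1 letters TGANTCA and the ETS letters CCGGAAG were in none of the 10, and in 1.79%, 7.81% and 8.86% of all promoters. These matches describe the letters only.

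Footprints measure ribosomes on mRNA, and gave the fewest calls among the receptors. Of the 8 receptors tested in RPFs beside Oxtr, 2 fell at 25 mM and 0 rose at an adjusted p under 0.1 (edgeR quasi-likelihood test with Benjamini-Hochberg adjustment). No receptor had an increase at an unadjusted p under 0.05 either, and DESeq2 also called 0 higher. Across all 8709 genes tested, 15.4% fell and 15.5% rose. Gipr and Glp1r, the receptors for the 2 incretin hormones of the gut, were the ones that fell. The median log2 fold change over the 8 was -0.0507, beside -0.00823 over all genes. Without the RPF library labelled 25 mM replicate 8, the count was 2 lower and 1 higher (Adra2a), with 17.0% of all genes lower and 17.6% higher.

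**Figure D1:**
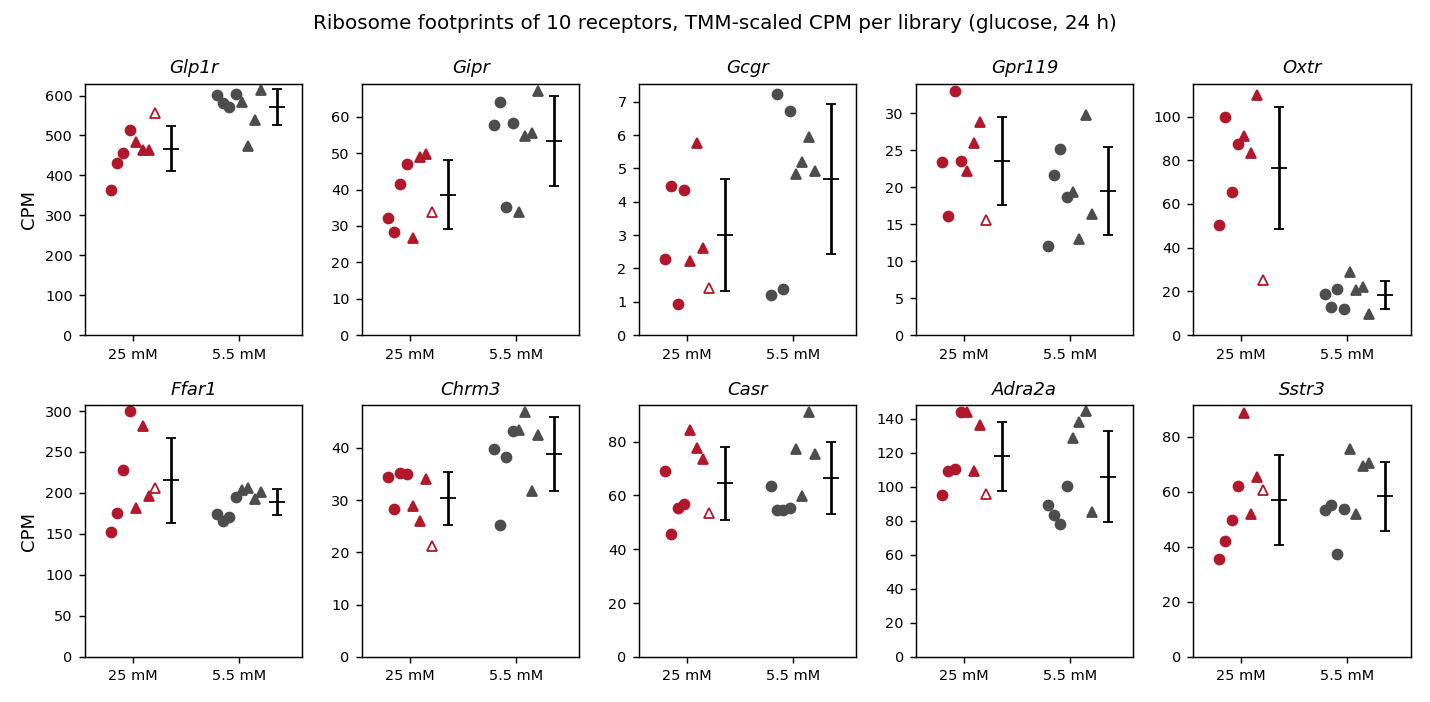
RPF level of each receptor in CPM (y axis, from 0) in the 8 libraries at 25 mM (red, left) and the 8 at 5.5 mM (grey, right). Circles are the first batch, triangles the second, the open triangle is the library labelled 25 mM replicate 8, and bars show mean ± SD. Oxtr is higher in 7 of 8 libraries at 25 mM than in any at 5.5 mM, and for every other receptor the groups overlap.

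The receptors coupled to Gs came first. Glp1r, the receptor for glucagon-like peptide 1, had RPFs from 363 to 556 CPM (median 464) at 25 mM and from 474 to 615 CPM (median 583) at 5.5 mM. At 25 mM, 5 of the 8 libraries lay below every library at 5.5 mM. RPFs of Glp1r fell to 0.811-fold at 25 mM, which is -0.30 in log2 with an SE of 0.088 (adjusted p = 0.0139). It was -0.34 (adjusted p = 0.002967) without the library labelled 25 mM replicate 8. Within the first batch alone the log2 fold change of Glp1r was -0.40 (adjusted p = 0.03528), and within the second it was -0.16 (adjusted p = 0.5716). RPF libraries of the first batch held 1235662 to 7012999 counts, and those of the second 363569 to 732164.

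Gipr, the receptor for glucose-dependent insulinotropic polypeptide, had 26.6 to 49.8 CPM (median 37.7) at 25 mM and 33.7 to 67.1 CPM (median 56.7) at 5.5 mM. The groups overlapped, with 3 libraries at 25 mM below all at 5.5 mM, and replicates 3 and 5 were the low libraries at 5.5 mM. Mean Gipr RPFs were 38.55 CPM at 25 mM. At 5.5 mM they were 42.2 CPM in the 3 cultures with deep RNA libraries and 59.9 CPM in the 5 with shallow ones. The RPF difference without those 5 cultures was not tested. Gipr RPFs fell to 0.708-fold, a log2 fold change of -0.50 with an SE of 0.16 (adjusted p = 0.0276). Counts per library were 12 to 135 at 25 mM and 21 to 256 at 5.5 mM. Neither batch alone passed the threshold for Gipr, with log2 fold changes of -0.50 (adjusted p = 0.1097) and -0.44 (adjusted p = 0.4029). Leaving out replicate 1 or replicate 2 of both groups also ended the call, with adjusted p of 0.107 and 0.17.

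Gpr119, a receptor for lipid amides such as oleoylethanolamide, had 15.5 to 32.9 CPM (median 23.5) at 25 mM and 12.0 to 29.7 CPM (median 19.0) at 5.5 mM. It rested on 9 to 107 counts per library at 25 mM and 5 to 183 at 5.5 mM, and the groups overlapped over most of their range. Its log2 fold change of 0.24 (SE 0.19) did not pass (adjusted p = 0.3944).

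Gcgr, the glucagon receptor, had too few RPF counts to be tested: 1 to 12 counts per library at 25 mM and 2 to 16 at 5.5 mM. Pooled over libraries without TMM scaling, it had 32 counts, or 2.62 CPM (exact Poisson 95% interval 1.79 to 3.7), at 25 mM and 49 counts, or 3.21 CPM (2.37 to 4.24), at 5.5 mM. The intervals cover counting error only and overlap, which is not a test of a difference. With TMM scaling, the libraries averaged 3.01 CPM at 25 mM and 4.67 CPM at 5.5 mM.

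The receptors coupled to Gq followed. Oxtr, the oxytocin receptor, had 50.3, 99.6, 65.6, 87.3, 90.9, 83.5, 110 and 25.4 CPM in replicates 1 to 8 at 25 mM, and 18.9, 12.6, 21.0, 11.9, 28.9, 20.8, 21.8 and 9.82 CPM in those at 5.5 mM. At 25 mM, 7 of the 8 libraries lay above all at 5.5 mM, and replicate 8 lay below the highest of the 5.5 mM libraries. This was a log2 fold change of 2.05 (SE 0.23), or 4.13-fold, and 2.16 (SE 0.18) without replicate 8 at 25 mM. The difference had the same direction in both batches, 2.15 in the first and 1.83 in the second. Oxtr RPF counts were 18 to 267 per library at 25 mM and 6 to 153 at 5.5 mM. Oxt, the gene of its ligand, had no RPF count in any of the 16 libraries, which over 27504512 counts allows up to 0.109 CPM (3 counts).

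Ffar1, the receptor for long-chain fatty acids, had 152 to 299.5 CPM of RPFs (median 201) at 25 mM and 166 to 206 CPM (median 194) at 5.5 mM. The 25 mM libraries spread more widely, on both sides of those at 5.5 mM. A log2 fold change of 0.19 (SE 0.12) did not pass (adjusted p = 0.2383).

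Chrm3, the muscarinic acetylcholine receptor M3, had 21.2 to 35.1 CPM (median 31.4) at 25 mM and 25.3 to 46.9 CPM (median 41.1) at 5.5 mM. Its log2 fold change of -0.28 (SE 0.14) did not pass (adjusted p = 0.1549). Casr, the calcium-sensing receptor, which couples to Gq and Gi, had 45.5 to 84.3 CPM (median 63.0) at 25 mM and 54.4 to 91.2 CPM (median 61.7) at 5.5 mM. The ranges of Casr overlapped almost fully, and the log2 fold change was -0.043 (SE 0.12, adjusted p = 0.8381), with a 95% interval of -0.27 to 0.18.

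The receptors coupled to Gi closed the group. Adra2a, the α2A adrenergic receptor for adrenaline and noradrenaline, had 95.1 to 144 CPM (median 110) at 25 mM and 78.4 to 145 CPM (median 94.9) at 5.5 mM. The difference, 0.21 in log2 (SE 0.12), did not pass (adjusted p = 0.2097). It passed the threshold without the library labelled 25 mM replicate 8, itself set apart for lying near the 5.5 mM mean, at 0.28 (adjusted p = 0.07149). It also passed in the first batch alone, at 0.40 (adjusted p = 0.06688), but was -0.028 (adjusted p = 0.9635) in the second. Sstr3, a somatostatin receptor, had 35.4 to 88.7 CPM (median 56.2) at 25 mM and 37.4 to 75.5 CPM (median 54.4) at 5.5 mM, a log2 difference of -0.059 with an SE of 0.13 (adjusted p = 0.8066).

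In polyA RNA most receptors were called, and 4 of these 7 calls were lost without the 5 shallow libraries at 5.5 mM. Of the 9 receptors beside Oxtr, 5 fell (Gipr, Ffar1, Gcgr, Sstr3 and Chrm3) and 2 rose (Casr and Gpr119) at an adjusted p under 0.01. Across all 12365 genes tested, 24.2% fell and 16.4% rose (2998 and 2032 genes). Scaling by library size in place of TMM gave 1342 genes lower and 2175 higher, with 4 receptors lower and the same number, 2, higher. Without the 5 RNA libraries at 5.5 mM, 3 fell (Gipr, Ffar1 and Gcgr) and 0 rose, beside 19.2% and 10.4% of all genes, while Casr and Gpr119 had an unadjusted p under 0.05. The second batch held the shallow replicates 6, 7 and 8 at 5.5 mM, and the first held the shallow replicates 2 and 4. Neither batch is therefore a check apart from the shallow libraries. In the second batch alone each of the 7 called receptors kept its direction and its call, with adjusted p from 0.000163 to 0.007021. In the first batch alone each kept its direction, but no gene in the table passed, and their adjusted p ran from 0.09171 to 0.1883. Those 5 libraries also had the low insulin share given above, and the part of their depth or RNA quality in these results was not tested. Since this is bulk RNA, fewer cells with a transcript and less transcript per cell cannot be told apart.

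**Figure D2:**
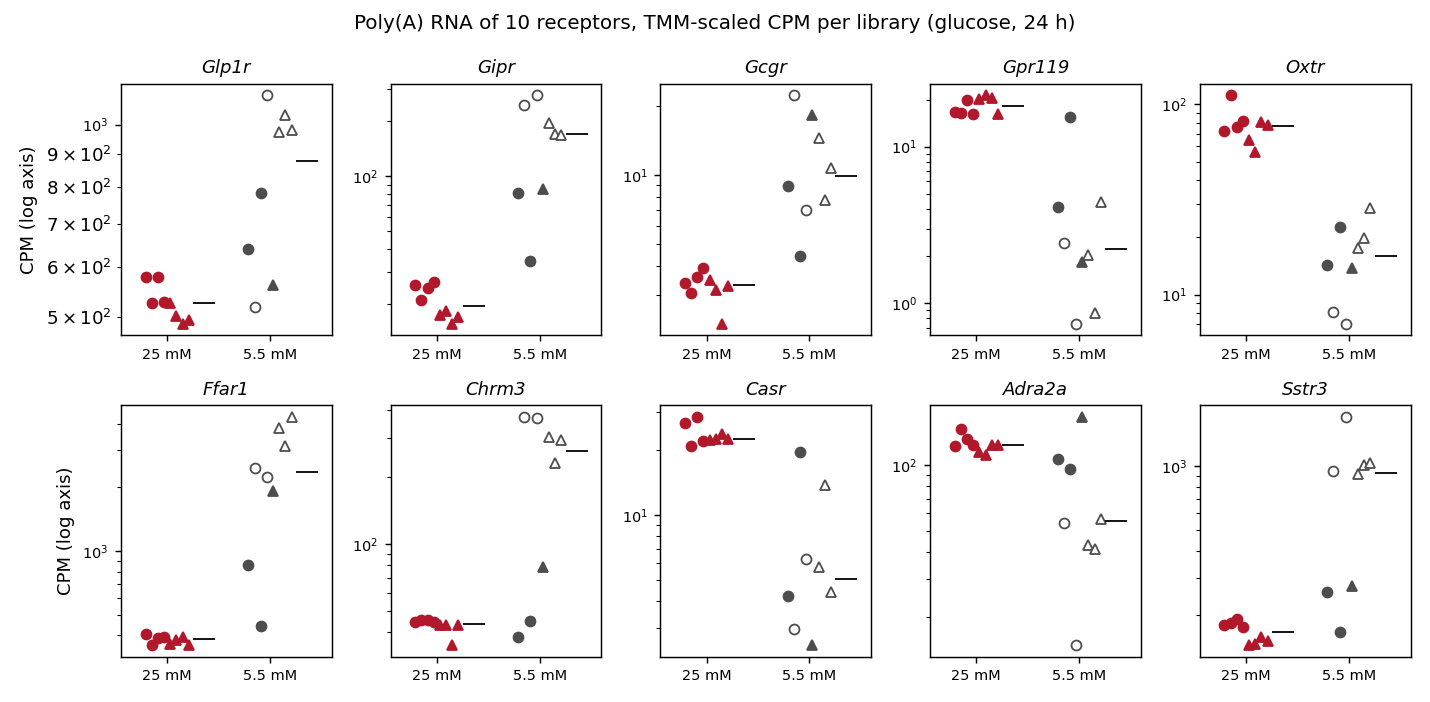
RNA level of each receptor in CPM (log y axis) in the 8 libraries at 25 mM (red, left) and the 8 at 5.5 mM (grey, right). Open symbols are the 5 shallow RNA libraries, circles the first batch, triangles the second, and black lines the medians. The open symbols of Sstr3 (915 to 1694 CPM) and Chrm3 (230 to 373 CPM) stand far above the filled ones.

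Gipr RNA ranged from 15.7 to 26.4 CPM (median 19.7) at 25 mM and from 34.3 to 279 CPM (median 170) at 5.5 mM. The groups did not overlap. The 3 deep libraries at 5.5 mM (replicates 1, 3 and 5) had 81.1, 34.3 and 85.6 CPM, and the 5 shallow ones 169 to 279 CPM. Over all libraries the log2 fold change was -2.95 (SE 0.36, adjusted p = 4.787e-05), and -1.68 (SE 0.23, adjusted p = 0.0005435) without the shallow ones.

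Ffar1 RNA was 359 to 406 CPM (median 384) at 25 mM and 441 to 4302 CPM (median 2351) at 5.5 mM. No library at 25 mM reached the lowest at 5.5 mM, and the deep 5.5 mM libraries had 857, 441 and 1931 CPM in replicates 1, 3 and 5. The log2 fold change of Ffar1 was -2.55 (SE 0.40, adjusted p = 0.000113), and -1.45 (SE 0.27, adjusted p = 0.001714) without the shallow libraries. Gcgr RNA, on 71 to 156 counts per library at 25 mM and 17 to 278 at 5.5 mM, was 2.25 to 3.91 CPM (median 3.33) at 25 mM and 4.43 to 22.3 CPM (median 9.85) at 5.5 mM. The groups of Gcgr did not overlap. On the log2 scale the difference was -1.84 (SE 0.31, adjusted p = 0.0001541) and -1.66 (SE 0.30, adjusted p = 0.001504) without the shallow libraries.

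Sstr3 and Chrm3 were called through the shallow libraries. Sstr3 RNA was 145 to 193 CPM (median 168) at 25 mM and 168 to 1694 CPM (median 930) at 5.5 mM, of which the deep libraries had 168 to 276 CPM. Its log2 fold change was -2.24 (SE 0.42, adjusted p = 0.0003761), against -0.47 (SE 0.15, adjusted p = 0.02151) without the shallow libraries, past the threshold no longer. Chrm3 RNA was 34.8 to 45.4 CPM (median 43.6) at 25 mM and 37.8 to 373 CPM (median 262) at 5.5 mM, with 37.8 to 78.7 CPM in the deep libraries. Its log2 fold change was -2.34 (SE 0.44, adjusted p = 0.0003708), and -0.33 (SE 0.18, adjusted p = 0.143) without the shallow ones.

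Casr and Gpr119 were the receptors whose RNA rose. Casr RNA was 21.0 to 28.5 CPM (median 22.6) at 25 mM and 2.50 to 19.6 CPM (median 5.08) at 5.5 mM. The groups did not overlap, and the deep libraries at 5.5 mM had 4.22, 19.6 and 2.50 CPM in replicates 1, 3 and 5. In log2 the increase of Casr was 1.67 (SE 0.37, adjusted p = 0.00139), and 1.59 (SE 0.47) without the shallow libraries, where the adjusted p of 0.01492 missed the threshold.

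Gpr119 RNA was 16.2 to 21.4 CPM (median 18.2) at 25 mM and 0.741 to 15.4 CPM (median 2.23) at 5.5 mM. Here too the groups did not overlap, and replicate 3 was the high library at 5.5 mM. Counts of Gpr119 at 5.5 mM were 2 to 402 per library. Its log2 fold change was 2.25 (SE 0.47, adjusted p = 0.0008427), and 1.45 (SE 0.48, adjusted p = 0.02339) without the shallow libraries.

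Oxtr RNA was 72.4, 112, 76.2, 81.3, 64.8, 56.1, 80.7 and 77.7 CPM in replicates 1 to 8 at 25 mM, and 14.3, 8.15, 22.6, 7.04, 13.9, 17.6, 19.8 and 28.5 CPM at 5.5 mM. Every library at 25 mM lay above every library at 5.5 mM. That was a log2 fold change of 2.26 (SE 0.27), or 4.79-fold, and 2.25 (SE 0.21) without the shallow libraries. Oxtr RNA in the 25 mM culture of replicate 8 was 77.7 CPM, within the range of its group, while the RPF library of that label had 25.4 CPM.

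Glp1r and Adra2a RNA were not called by edgeR. Glp1r RNA was 488 to 578 CPM (median 526) at 25 mM and 518 to 1112 CPM (median 878) at 5.5 mM, and the log2 difference of -0.64 had an SE of 0.25 (adjusted p = 0.03363). It was -0.29 (SE 0.11, adjusted p = 0.04626) without the shallow libraries, and DESeq2, over all libraries, called it lower at -0.78 (adjusted p = 0.001188). Adra2a RNA was 111 to 146 CPM (median 124) at 25 mM and 14.8 to 166 CPM (median 55.3) at 5.5 mM, where the deep libraries had 95.8 to 166 CPM and the shallow ones 14.8 to 56.3 CPM. The log2 difference of Adra2a was 0.78 (SE 0.35, adjusted p = 0.06572), against 0.020 (SE 0.16, adjusted p = 0.9237) without the shallow libraries.

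Translation efficiency (TE) is the ratio of RPFs to RNA. It was tested with RNA and RPF libraries in 1 model, as the difference of their 2 glucose effects. TE so carries the RNA differences with the sign turned. The model had no term for culture, so its p-values leave the pairing of the 2 libraries of each culture unused. Of the 8 receptors tested beside Oxtr, 4 rose (Ffar1, Gipr, Sstr3 and Chrm3) and 2 fell (Casr and Gpr119) at an adjusted p under 0.1, beside 28.8% and 32.2% of all 8637 genes (2486 and 2785). Library size scaling gave 1143 genes higher and 4336 lower, with 4 receptors higher and 3 lower. Without the 6 libraries that stood apart, 3 rose (Ffar1, Gipr and Sstr3) and the same 2 fell, beside 24.3% and 28.8% of all genes. This fit kept the other library of each culture concerned. At 5.5 mM it therefore set RPFs of 8 cultures against RNA of 3, which is not a ratio within cultures. In the second batch alone, where the RNA libraries of replicates 6, 7 and 8 at 5.5 mM were shallow, all 6 kept their calls. In the first alone only Ffar1 and Gipr did, each at an adjusted p of 0.09962.

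**Figure D3:**
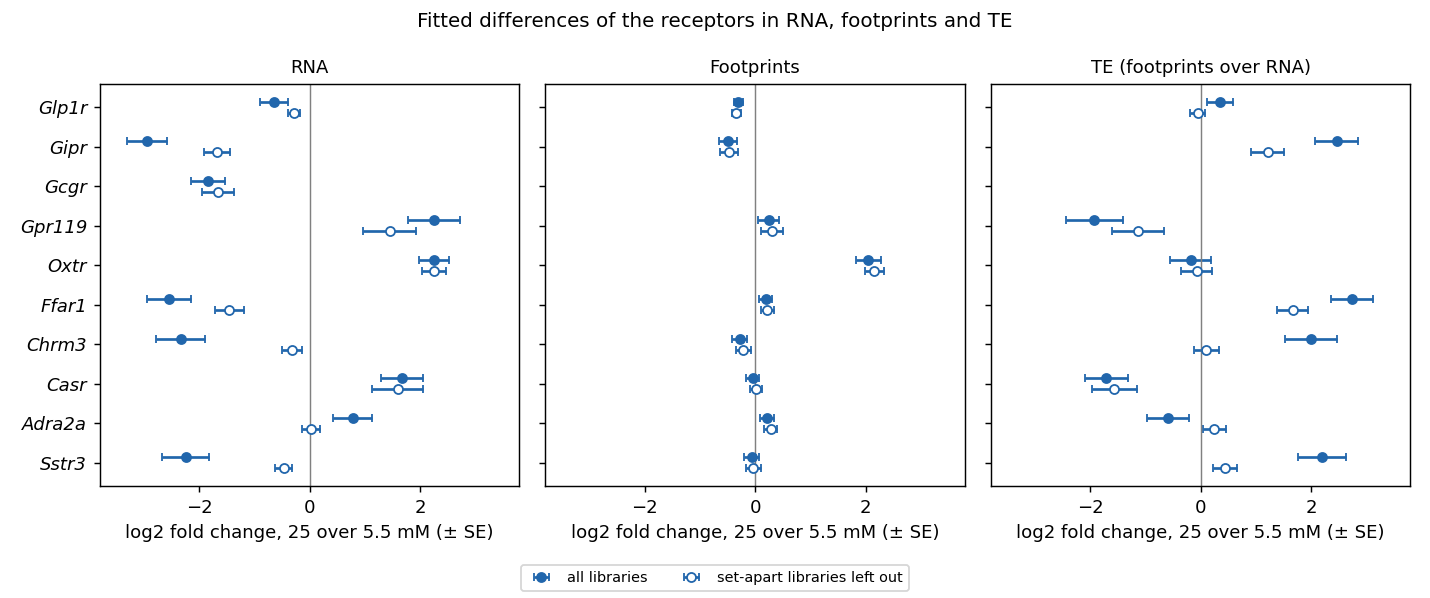
Log2 fold change at 25 over 5.5 mM (x axis, bars ± SE) of each receptor in RNA, RPFs and TE, over all libraries (filled) and without the libraries that stood apart (open). RPF differences other than that of Oxtr lie between -0.50 and 0.30, and the RNA difference of Chrm3 is -2.34 over all libraries and -0.33 without the shallow ones.

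Of the 9 receptors fitted, Ffar1 had the largest TE difference. Its per-culture TE (log2 of RPF CPM over RNA CPM) was -1.41 to -0.39 at 25 mM and -4.41 to -1.37 at 5.5 mM, and 7 of 8 cultures at 25 mM lay above all at 5.5 mM. In TE the log2 fold change was 2.74 (SE 0.38, adjusted p = 8.724e-06), and 1.67 (SE 0.28, adjusted p = 0.000255) without the 6 libraries. Gipr TE was 0.33 to 1.64 at 25 mM and -2.25 to 0.034 at 5.5 mM on the same log2 scale, with no overlap. In log2, Gipr TE rose by 2.46 (SE 0.40, adjusted p = 2.088e-05), and 1.22 (SE 0.30, adjusted p = 0.003243) without the 6 libraries. The RPF difference of Ffar1 did not pass the test and Gipr RPFs fell, and RNA of both was lower at 25 mM.

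In log2, Sstr3 TE rose by 2.20 (SE 0.44, adjusted p = 0.0001993), and 0.44 (SE 0.21, adjusted p = 0.08995) without the 6 libraries. For Chrm3 the log2 fold change was 2.00 (SE 0.48, adjusted p = 0.001215), and 0.098 (SE 0.23, adjusted p = 0.7517) without them, so the call was lost. Casr TE was 0.94 to 1.89 at 25 mM and 1.45 to 4.69 at 5.5 mM, and the log2 difference was -1.71 (SE 0.39, adjusted p = 0.0007713), and -1.56 (SE 0.40, adjusted p = 0.004027) without the 6 libraries. For Gpr119 TE it was -1.93 (SE 0.51, adjusted p = 0.002897), and -1.13 (SE 0.47, adjusted p = 0.05296) without them.

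Oxtr TE was -1.60 to 0.57 at 25 mM and -1.49 to 1.03 at 5.5 mM, with replicate 8 the lowest culture in both groups. Oxtr TE had a log2 fold change of -0.18 (SE 0.38), given as a description. The log2 differences behind it were 2.05 in RPFs and 2.26 in RNA. Glp1r TE was 0.35 (SE 0.23, adjusted p = 0.2025) and Adra2a TE -0.59 (SE 0.39, adjusted p = 0.1946) as log2 fold changes, and both changed sign without the 6 libraries, to -0.050 and 0.25. DESeq2 called Glp1r TE higher, at 0.65 (adjusted p = 0.01758), and library size scaling lower, at -0.59 (adjusted p = 0.04211).

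The genes nearest to Oxtr in RPF pattern were found by the root mean square difference of centred log2 CPM over the 16 RPF libraries, among 8709 genes. They were Dusp4, a MAP kinase phosphatase (0.298), Tent5a, a non-canonical poly(A) polymerase (0.339), Kdelr3, a receptor that returns proteins to the endoplasmic reticulum (0.352), Slc17a9, the vesicular nucleotide transporter (0.376), and Rcn3, a calcium-binding protein of the secretory pathway (0.392). In Oxtr and in each of these 5 genes the lowest library at 25 mM was replicate 8. Dusp4, for instance, had 47.95 CPM there, against 119.8 to 226.2 CPM in the other 25 mM libraries and 29.1 to 56.23 CPM at 5.5 mM. The genes nearest to Glp1r were Papss2 (0.107), Gga2 (0.108), Disp2 (0.112), Klhl32 (0.116) and Rph3al (0.121), with RPF log2 fold changes from -0.364 to -0.289. The likeness was measured on the values that chose Oxtr and is a description.

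**Figure D4:**
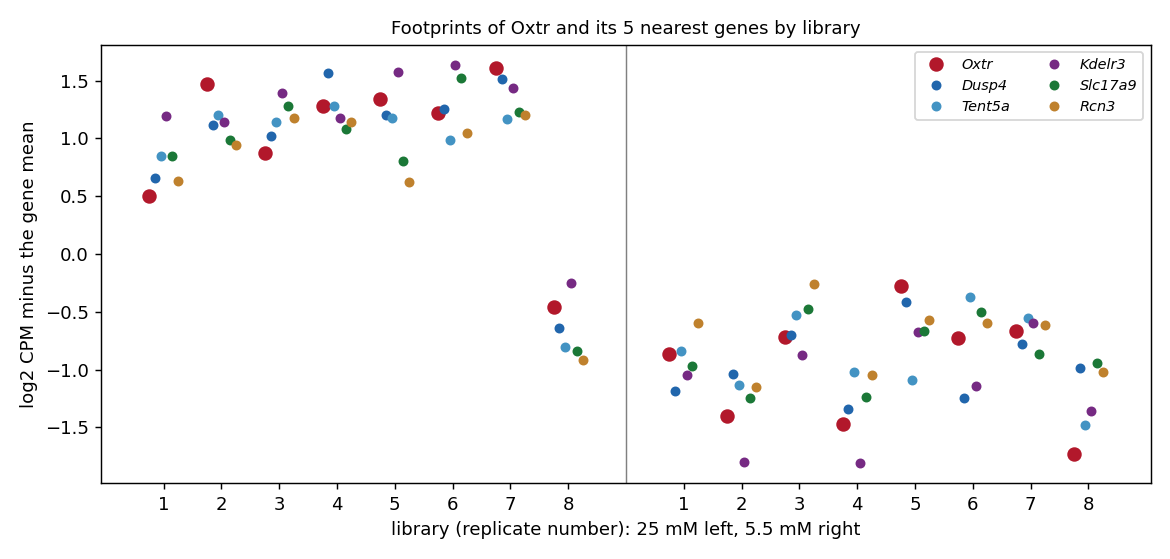
RPF level of Oxtr and its 5 nearest genes in each library, as log2 CPM minus the mean of the gene (y axis), at 25 mM (left) and 5.5 mM (right). In the library labelled 25 mM replicate 8, Oxtr (25.4 CPM) and the other 5 genes lie below every other library at 25 mM.

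The ligands of these and related receptors, the G proteins and the second messenger systems were read from lists of named genes. Across all 8709 genes tested in RPFs, 15.5% rose and 15.4% fell, and each list count stands beside these shares. Of 14 ligand genes, 5 passed the filter on RPFs, 4 rose and 0 fell, with a median log2 fold change of 0.717. They were Gcg, which encodes glucagon and glucagon-like peptide 1 (log2 fold change 1.23, adjusted p = 1.36e-05), Cck, cholecystokinin (1.15, adjusted p = 1.07e-05), Iapp, islet amyloid polypeptide (0.72, adjusted p = 0.000135), and Npy, neuropeptide Y (0.33, adjusted p = 0.0381). Gcg RPFs averaged 248.6 ± 91.47 CPM at 25 mM and 103.8 ± 42.08 CPM at 5.5 mM (SD, n = 8 each). The RPFs of 15 of 28 G protein subunits were tested, and 3 rose and 2 fell, with a median of 0.132. Gng12, a γ subunit, rose by 1.07 (adjusted p = 1.55e-05) and Gnas, which encodes the α subunit of Gs, by 0.41 (adjusted p = 0.00252) on the log2 scale. The α subunits Gnao1 (-0.28, adjusted p = 0.0171) and Gnai2 (-0.33, adjusted p = 0.0201), both of the Gi family, fell.

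In the cAMP pathway 25 of 47 genes were tested, and 6 rose and 2 fell in RPFs, beside 15.5% and 15.4% of all genes. The median log2 fold change of the list was -0.0316. Prkar1a, a regulatory subunit of protein kinase A, had RPFs of 1479 ± 248.5 CPM at 25 mM and 859.9 ± 74.94 CPM at 5.5 mM (SD, n = 8 each) and a log2 fold change of 0.78 (adjusted p = 9.14e-06). The related subunit Prkar1b went the other way (-0.64, adjusted p = 0.000164). Rapgef4, the cAMP sensor Epac2, rose (0.37, adjusted p = 0.0277), and the adenylyl cyclase Adcy9 fell (-0.22, adjusted p = 0.0793). In the Gq and phospholipase C pathway 22 of 33 genes were tested, and 1 rose and 4 fell, beside the same shares of all genes, with a median of -0.147. Itpr1, the type 1 IP3 receptor that releases calcium, fell most among the named genes, to 93.41 ± 59.01 CPM at 25 mM against 215.9 ± 36.64 CPM at 5.5 mM (log2 fold change -1.27, adjusted p = 2.91e-05). Trpm5, a calcium-activated cation channel (-0.33, adjusted p = 0.0292), and the phospholipase Plch1 (-0.36, adjusted p = 0.0383) fell as well.

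**Figure D5:**
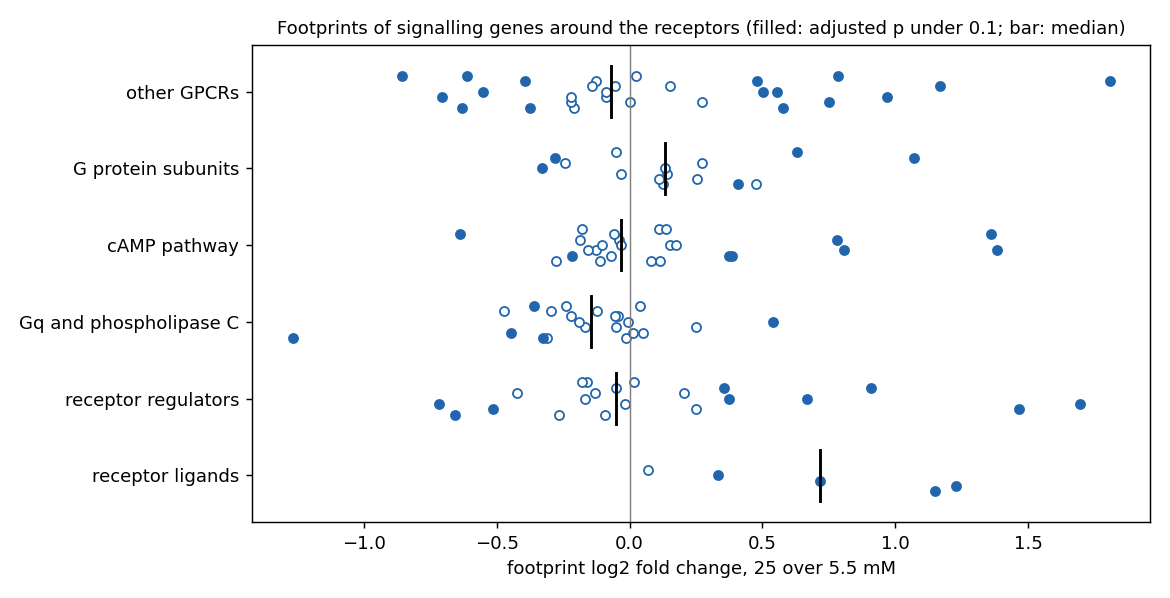
RPF log2 fold change at 25 over 5.5 mM (x axis) of each tested gene in 6 lists (rows). Filled points passed an adjusted p under 0.1, and the bar is the list's median. Of the 5 ligand genes tested 4 rose, beside 15.5% of all genes, and Itpr1, at -1.27, is the lowest point.

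Of 38 regulators of receptors and G proteins, 21 were tested in RPFs, and 6 rose and 3 fell, with a median log2 fold change of -0.0524. Rgs4 (1.47, adjusted p = 2.75e-06) and Rgs9 (0.67, adjusted p = 1.69e-05), which speed the shutdown of G protein signals, rose. The receptor-sorting genes Gprasp2 (-0.72, adjusted p = 0.000492) and Gprasp1 (-0.51, adjusted p = 0.00323) fell. Rgs4 RNA had a log2 fold change of -1.99 over all libraries and 0.84 without the 5 shallow ones, so its direction in RNA turned with them. Of 110 other G protein-coupled receptors, 28 passed the filter on RPFs, and 9 rose and 7 fell, with a median of -0.0708. Among them were Gpr180 (0.97, adjusted p = 4.97e-06), the galanin receptor Galr1 (0.79, adjusted p = 4.33e-05) and the purinergic receptor P2ry1 (0.58, adjusted p = 0.00252), which rose, and the adhesion receptor Adgrl3 (-0.71, adjusted p = 0.00186), which fell. Without the RPF library labelled 25 mM replicate 8, the tested ligands again numbered 4 higher and 0 lower, the cAMP genes 8 and 3, the Gq and phospholipase C genes 1 and 4, the G protein subunits 3 and 3, the regulators 6 and 4 and the other receptors 9 and 8. The shares over all genes without that library were 17.6% higher and 17.0% lower, and over all libraries 15.5% and 15.4%.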

How the data were processed

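The deposited tables hold raw counts per gene, made by the authors with the XPRESSyourself pipeline: this trims and aligns reads against Ensembl, discards ribosomal RNA and duplicate reads, and tallies what is left per protein-coding gene, on whole exons or on coding sequence with its ends cut off. Which feature served which library type, and tool versions, are not given in the sources used here. The submitters' processing notes name DESeq2.

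Within each library type, genes were filtered with filterByExpr (minimum count 10) and scaled by TMM, and 25 mM was tested against 5.5 mM with batch as a covariate by edgeR 4.0.16 quasi-likelihood tests in R 4.3.3, with Benjamini-Hochberg adjustment over all genes. Calls used adjusted p under 0.01 (RNA) and 0.1 (RPFs and TE). TE used genes past both filters, with the scaling of each library type kept. A second scaling, from those shared genes alone, was added after TE results had been seen. Levels are TMM-scaled CPM, and per-culture TE is a difference of log2 CPM with a pseudocount of 0.5. No transcript lengths were used, so levels are not compared between genes. Alternatives used limma 3.58.1 and DESeq2 1.42.0. The scripts were tested on simulated data. Figures used matplotlib.

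The members, lists and alternatives were chosen with earlier results of these data known. All members were named, and from each list up to 4 genes called in RPFs with the smallest p and above-median level, plus the 5 genes nearest to Oxtr and Glp1r.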

Additional observations from a re-analysis of the deposited data

Results flagged for a closer look

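Of 38 groups of 8 libraries examined, 3 held a library far from its group, where chance flags about 1 in 20. Oxtr RNA in 25 mM replicate 2 was 111.6 CPM, with the nearest library at 81.29 CPM. Chrm3 RNA in 25 mM replicate 7 was 34.82 CPM, with the nearest at 42.83 CPM. Gpr119 RNA in 5.5 mM replicate 3, one of the deep libraries, was 15.35 CPM, with the nearest at 4.43 CPM.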

How the results depend on the processing

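Of the receptors' fold changes recomputed under the alternatives, 154 of 169 in RNA, 138 of 153 in RPFs and 167 of 180 in TE were kept. For the tested receptors, kept means the same direction and side of the threshold. For Oxtr, which carries no test, it means a log2 fold change within 2 SE of the main fit. Library size scaling moved the median log2 fold change of all genes in RNA to 0.818, from 0.123 with TMM, and gave 1342 genes lower in RNA (2998 with TMM) and 1143 higher and 4336 lower in TE (2486 and 2785). It turned Glp1r to 0.2547 in RNA and -0.5867 in TE. With the replicate block, 1906 genes were lower in RNA and 1 receptor (Adra2a) was higher in RPFs. The block also called Adra2a lower in TE (-0.8765, adjusted p = 0.06071), as did the culture block, limma on TE per culture and leaving out replicate 5. The shared numbers were not taken to pair the samples, since not every pair correlated over 0.1: 4 of 8 RNA and 6 of 8 RPF pairs did as deviations from group means, and 2 and 4 with batch also removed, where RPF pairs ran from 0.00849 to 0.468 and 4 of 8 matched best with their own number. DESeq2 called 1 receptor higher in RNA, gave Gpr119 no adjusted p, and added Glp1r lower in RNA and higher in TE. In the first batch alone 0 genes and 0 receptors were called in RNA in either direction, 1 receptor was higher and 1 lower in RPFs, and in TE 567 genes were higher and 11 lower, with 2 receptors higher and 0 lower. In the second batch alone 197 genes were higher, 94 lower and 0 receptors lower in RPFs. Casr RPFs were 0.01618 in the first batch, and Adra2a RPFs -0.02826 in the second. Without the 5 RNA libraries, 1342 genes and 0 receptors were higher and 3 receptors lower in RNA. Without the library labelled 25 mM replicate 8, 1 receptor was higher in RPFs and Casr was 0.01822. Without the 6 libraries, TE was -0.0496 for Glp1r and 0.2497 for Adra2a. Leaving out each replicate number gave 1024 to 2719 genes higher in RNA, 876 to 1593 genes and 1 to 2 receptors lower in RPFs, 2 to 3 receptors lower in TE, and RPF log2 fold changes of -0.1484 to 0.04222 for Sstr3 and -0.08311 to 0.007404 for Casr. Chrm3 RPFs passed without replicate 2 (adjusted p = 0.09082). The added scaling on shared genes gave 2697 higher and 2473 lower in TE, with 4 and 2 receptors, as before, and Glp1r at an adjusted p of 0.101. The causes of these changes were not tested. RPF counts of Gcgr, Oxtr, Gpr119 and Chrm3 were under 10 in at least 1 library, which limits their precision.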
